A study of Homo sapiens with 6 samples.

Results

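Amino acids enter and leave cells through solute carriers, and 10 such carriers of the plasma membrane were examined here across the RNA-seq samples of fostamatinib-treated liver cancer cells. They were taken by symbol (SLC7A11, SLC7A5, SLC3A2, SLC7A1, SLC1A5, SLC1A4, SLC38A1, SLC38A2, SLC6A9 and SLC43A1), and all 10 were found among the 16305 genes in the processed files. The cells were Huh7SR, a sorafenib-resistant pool selected from the hepatocellular carcinoma line Huh7, so every sample of both groups carried the same resistance background and no parental cells were compared. In the DMSO group (n = 3), cells received the vehicle for 24 h. The Fostamatinib group (n = 3) received the kinase inhibitor at 2 µM for 24 h, and the labels write the same dose for the vehicle. Per the study's methods, sorafenib had been withdrawn from the medium before experiments, and the medium was supplied with L-glutamine and serum. The comparison asks how the resistant cells change their RNA when treated with fostamatinib. Separate cultures are not stated for the triplicates, so p-values measure the spread between these samples, which may be technical.

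Poly(A)-selected RNA was sequenced, and 13303451 to 15272737 reads per sample fell on the listed genes. Replicates correlated at 0.9879 or above across genes and samples of different groups at 0.9719 or below (Pearson's r on log2 CPM). All 10 markers of hepatocytes and Huh7 cells on a list (ALB, AFP, TTR and others) were listed. They passed limma's test as higher after fostamatinib (adjusted p under 0.05), as did 23.3% of all genes. Their log2 fold changes ran from 0.21 for APOB to 3.19 for APOA1. Of 13 markers of blood, endothelial and stromal cells, 6 were listed, with a summed level of 164.9 to 171.4 CPM (reads of a gene scaled to a common library size) in DMSO and 210.8 to 220.8 CPM in fostamatinib samples, mostly from COL1A2. The 6 listed markers were LYZ, PECAM1, PDGFRB, COL1A1, COL1A2 and COL3A1. Of these, PECAM1, PDGFRB and COL1A2 passed the test as higher after fostamatinib, and the others did not pass. The markers PTPRC, CD3E, CD68, VWF, CDH5 and ACTA2, and the red cell gene HBB, were not listed. Genes of the mitochondrial genome took 6.15% to 6.67% of the reads in DMSO and 8.16% to 8.40% in fostamatinib samples, and the part of these differences in the results was not tested. In such bulk samples, fewer cells of a type and less RNA per cell cannot be told apart.

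Most of these proteins belong to a few families. SLC7 light chains such as SLC7A5 (LAT1, an exchanger of large neutral amino acids) and SLC7A11 (xCT, which takes up cystine in exchange for glutamate) reach the membrane bound to the heavy chain SLC3A2 (4F2hc, CD98). SLC1A5 and SLC1A4 are sodium-dependent exchangers of small neutral amino acids, SLC38A1 and SLC38A2 load cells with glutamine and other neutral amino acids, and SLC7A1 carries arginine and lysine. Several of their genes are known to be transcribed more when amino acids run short, through the kinase GCN2 (EIF2AK4) and the transcription factor ATF4, and tumour cells often hold them at high levels.

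All 10 transporter RNAs were lower in the fostamatinib samples than in the DMSO samples. Each passed limma's test as lower at an adjusted p under 0.05, as did 24.5% of all genes (47.8% in either direction), and none was higher. For each of the 10, every fostamatinib sample lay below every DMSO sample, which held for 27.4% of all genes. The fall exceeded 2-fold for 7 of them (3.29% of all genes), namely SLC6A9, SLC1A4, SLC7A11, SLC7A1, SLC1A5, SLC38A1 and SLC7A5. The median log2 fold change over the 10 was -1.19, beside 0.0015 over all genes. The 10 genes were chosen with earlier results of these data known, so their shared direction is not independent evidence. Together their RNAs summed to 3227, 3175 and 3147 CPM in the DMSO samples and to 1624, 1619 and 1649 CPM in the fostamatinib samples, so that the treated sum was 51.2% of the vehicle sum. CPM are relative to the reads of each sample, and the amount of RNA per cell was not measured.

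**Figure D1:**
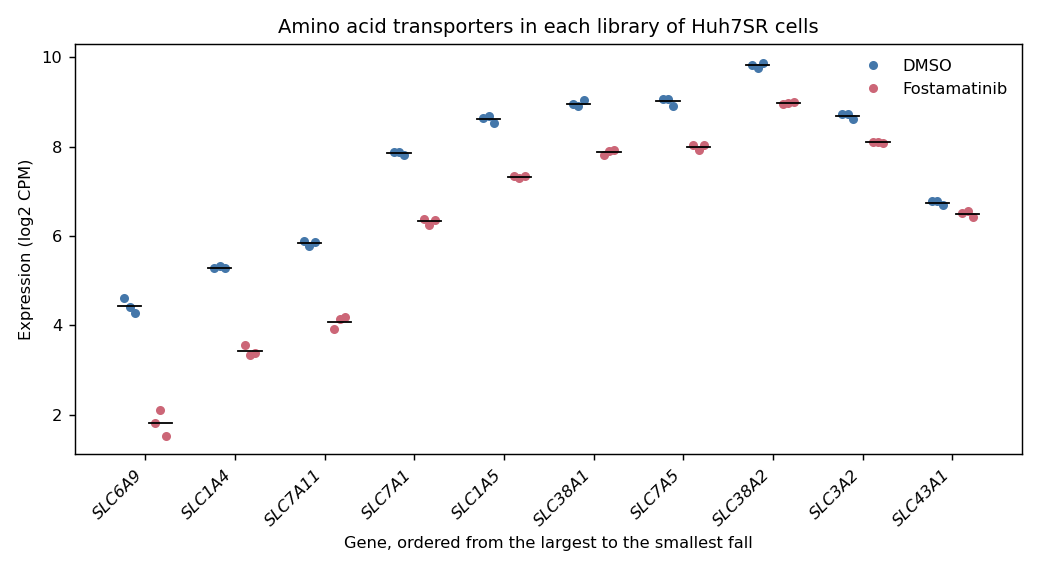
Expression of each transporter gene (log2 CPM, vertical axis) in the 3 DMSO and the 3 fostamatinib samples, with genes ordered from the largest to the smallest fall; points are samples and black lines are group means. The groups are apart for all 10 genes, and the gap between the lowest DMSO and the highest fostamatinib sample is 2.18 on the log2 scale for SLC6A9 and 0.12 for SLC43A1.

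For several of these genes the sequence around the start of transcription is shown first, as a description. RefSeq windows of 300 bases around start sites (250 before, 50 after) were given for 9 of the 10 genes, with 16 windows in all, while SLC7A11 had no entry. Each window was found by exact match at 1 place in GRCh37, and positions are in that build. The letters TGATGNAA, in which N is any base, are the core of the C/EBP-ATF composite element that ATF4 is known to bind. On either strand they stood in 5 of the 16 windows (31.2%), and in 1 of 19 windows (SLC1A3) of the other plasma membrane amino acid transporters. Over all 35116 RefSeq windows, from 27305 genes, the share was 3.62%. Those genes are not limited to the ones listed in the files, so the sets compared are unlike. The E-box CACGTG stood in 3 of the 16 windows (SLC1A5, SLC43A1 and SLC7A5), beside 7.26% of all windows and 15.8% of those of the other plasma membrane amino acid transporters. The antioxidant response letters TGACNNNGC stood in 4 (SLC1A5, SLC3A2, SLC7A1 and SLC7A5), beside 13.3% of all windows and again 15.8% of those of the other transporters. No match in these 16 windows overlapped another. In the 27 windows of the amino acid response regulators and markers described below, TGATGNAA stood in 14.8%, CACGTG in 7.41% and TGACNNNGC in 22.2%. A match is a description of letters and not a measured binding site. Whether any match has a part in the falls was not tested. The 5 matches to TGATGNAA are printed 5′ to 3′ on the gene's strand with the match in capitals, and those of SLC1A4 and SLC3A2 read on the opposite strand.
SLC1A4, chr2:65216515-65216544, + strand: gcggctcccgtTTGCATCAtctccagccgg
SLC3A2, chr11:62649191-62649220, + strand: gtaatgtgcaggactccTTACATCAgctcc
SLC38A1, chr12:46660285-46660314, - strand: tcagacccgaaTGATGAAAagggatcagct
SLC7A1, chr13:30169800-30169829, - strand: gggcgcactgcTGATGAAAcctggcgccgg
SLC1A5, chr19:47288150-47288179, - strand: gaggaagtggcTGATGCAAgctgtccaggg

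The first base of the match lay 7 bases before the start site in SLC1A4 and 4 before it in SLC38A1, and at base 38 of the transcript in SLC3A2 and base 8 in SLC7A1. In SLC1A5 it lay 97 bases before a start site. SLC7A1 had a single window, whereas SLC1A4 and SLC38A1 had 2 each and SLC3A2 and SLC1A5 had 3 each, and in these 4 genes the match belonged to the start site farthest downstream. The RNAs with the deepest falls included SLC1A4, with such a match, and SLC6A9, whose single window held none. SLC6A9 has 12 annotated transcripts, and sequence outside that window was not searched. The upstream stretches of both genes are given for comparison. That of SLC1A4 (its downstream start site) runs to the end of its match (in capitals), and that of SLC6A9 to its start site.
SLC1A4, chr2:65216283-65216533, + strand: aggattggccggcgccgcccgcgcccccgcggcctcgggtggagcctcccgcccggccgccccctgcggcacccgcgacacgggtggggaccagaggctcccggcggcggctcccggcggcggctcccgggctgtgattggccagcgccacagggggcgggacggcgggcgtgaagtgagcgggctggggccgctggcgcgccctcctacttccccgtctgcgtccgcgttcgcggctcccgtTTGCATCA
SLC6A9, chr1:44497135-44497384, - strand: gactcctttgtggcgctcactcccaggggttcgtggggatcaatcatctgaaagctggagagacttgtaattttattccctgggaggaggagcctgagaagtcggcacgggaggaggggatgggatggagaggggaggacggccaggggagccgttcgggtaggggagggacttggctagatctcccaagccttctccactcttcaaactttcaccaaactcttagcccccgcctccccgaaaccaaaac

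SLC6A9 (GLYT1, a sodium- and chloride-dependent glycine transporter) showed the deepest fall of the 10. The gene (ENSG00000196517, chromosome 1 of GRCh37, 44457172 to 44497139, - strand, up to 14 exons in a transcript) was measured at 24.6, 21.3 and 19.5 CPM in the DMSO samples and at 3.53, 4.31 and 2.91 CPM in the fostamatinib samples. The lowest vehicle sample was still several times above the highest treated sample. The mean went from 4.44 ± 0.17 to 1.82 ± 0.29 log2 CPM (SD, n = 3 each), a log2 fold change of -2.62 (SE 0.13, adjusted p = 3.10e-18, limma), or 6.14-fold lower with a 95% interval of 5.10 to 7.40. Only 0.276% of all genes fell by more. With 38 to 339 reads per sample it was also the least deeply counted of the 10. Its exons share 413 bases with CCDC24 on the opposite strand, whose reads were 150, 162 and 131 in DMSO and 189, 170 and 206 in fostamatinib samples. The strand setting of the read counting was not given in the sources used here.

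The pair of small neutral amino acid exchangers fell unequally. SLC1A4 (ASCT1, which carries serine, alanine and cysteine) lies on chromosome 2 (65215611 to 65250999, + strand, ENSG00000115902). It was at 38.8, 39.9 and 39.1 CPM in DMSO and at 11.8, 10.1 and 10.5 CPM in fostamatinib samples. Replicates were tight in both groups, and the fall was 3.64-fold (95% interval 3.25 to 4.09), with a log2 fold change of -1.87 (SE 0.08, adjusted p = 5.85e-20). SLC1A5 (ASCT2, the main glutamine exchanger of many tumour cells) lies on chromosome 19 (47278140 to 47291851, - strand, ENSG00000105281). It was at 399.4, 409.9 and 371.5 CPM in DMSO and 162.1, 157.9 and 161.4 CPM in fostamatinib samples. It fell 2.45-fold (95% interval 2.32 to 2.60), a log2 fold change of -1.29 (SE 0.04, adjusted p = 3.55e-24). An opposite-strand lncRNA, ENSG00000275719, holds 21.3% of the 50-base stretches of SLC1A5 transcripts, the largest shared part among the 10 genes, and had 6 to 16 reads in any sample.

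The shared heavy chain and its light chains did not move by the same amount. SLC7A11 (chromosome 4, 139085251 to 139163503, - strand, ENSG00000151012), the cystine importer whose product feeds glutathione synthesis, was at 59.0, 55.1 and 58.4 CPM in DMSO and at 15.2, 17.7 and 18.2 CPM in fostamatinib samples. That is 3.38-fold lower (95% interval 3.05 to 3.74), a log2 fold change of -1.76 (SE 0.07, adjusted p = 1.05e-20). SLC7A5 (chromosome 16, 87863629 to 87903113, - strand, ENSG00000103257), which brings in leucine and other large neutral amino acids, was at 539.1, 533.5 and 477.5 CPM in DMSO. Its fostamatinib samples were at 262.4, 243.8 and 260.6 CPM. The highest treated sample was far below the lowest vehicle sample. The fall was 2.02-fold (95% interval 1.90 to 2.14), a log2 fold change of -1.01 (SE 0.04, adjusted p = 1.05e-20). SLC3A2 (chromosome 11, 62623476 to 62656352, + strand, ENSG00000168003), the heavy chain itself, was at 421.7, 421.2 and 390.2 CPM in DMSO and 275.3, 273.2 and 271.8 CPM in fostamatinib samples. The fostamatinib samples were nearly alike, and their mean was 66.6% of the vehicle mean, a log2 fold change of -0.59 (SE 0.04, adjusted p = 2.77e-15). In the annotation used, 8.61% of the 50-base stretches of SLC7A5 transcripts and 9.29% of those of SLC7A11 also occur in other genes, among them the pseudogene SLC7A5P2 and the antisense gene SLC7A11-AS1, neither of which was listed.

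SLC7A1 (CAT1, the widely expressed importer of arginine, lysine and ornithine) lies on chromosome 13 (30083551 to 30169825, - strand, ENSG00000139514). It was at 235.7, 235.7 and 224.1 CPM in DMSO and at 83.5, 76.2 and 82.5 CPM in fostamatinib samples. It fell 2.87-fold (95% interval 2.69 to 3.06), a log2 fold change of -1.52 (SE 0.05, adjusted p = 9.74e-25). Its relative SLC7A2 (CAT2), a cationic amino acid transporter prominent in liver, went the other way. SLC7A2 was at 274.8, 284.4 and 291.1 CPM in DMSO and at 437.5, 461.7 and 470.3 CPM in fostamatinib samples, a log2 fold change of 0.69 (SE 0.04, adjusted p = 3.42e-17).

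Both sodium-coupled neutral amino acid transporters fell. The genes are neighbours on the - strand of chromosome 12. SLC38A1 (SNAT1, 46576846 to 46663800, ENSG00000111371) was at 495.4, 479.2 and 523.6 CPM in DMSO and at 226.3, 238.7 and 241.7 CPM in fostamatinib samples. It fell 2.12-fold (95% interval 2.01 to 2.24), a log2 fold change of -1.08 (SE 0.04, adjusted p = 2.22e-22). SLC38A2 (SNAT2, 46751971 to 46766556, ENSG00000134294), known for its induction when amino acids are withdrawn, was at 903.7, 869.7 and 940.6 CPM in DMSO. Its fostamatinib samples were at 493.1, 501.9 and 512.6 CPM, 1.80-fold lower (95% interval 1.71 to 1.89), a log2 fold change of -0.85 (SE 0.03, adjusted p = 1.04e-20). Per kilobase of exon, with the exons of all annotated transcripts joined, SLC38A2 had the highest level of the 10 in both groups.

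SLC43A1 (LAT3, a facilitated transporter of branched-chain amino acids and phenylalanine that needs no heavy chain) changed least. The gene (chromosome 11, 57252007 to 57283253, - strand, ENSG00000149150) was at 109.4, 109.8 and 102.8 CPM in DMSO and at 91.2, 94.6 and 86.5 CPM in fostamatinib samples. The groups did not overlap, but the gap between the lowest vehicle and the highest treated sample was small. The fall was 1.18-fold (95% interval 1.10 to 1.27), a log2 fold change of -0.24 (SE 0.05, adjusted p = 8.73e-05). A fall larger than this was seen in 26.8% of all genes, beside 10.5% for SLC3A2 and 2.33% for SLC1A5.

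**Figure D2:**
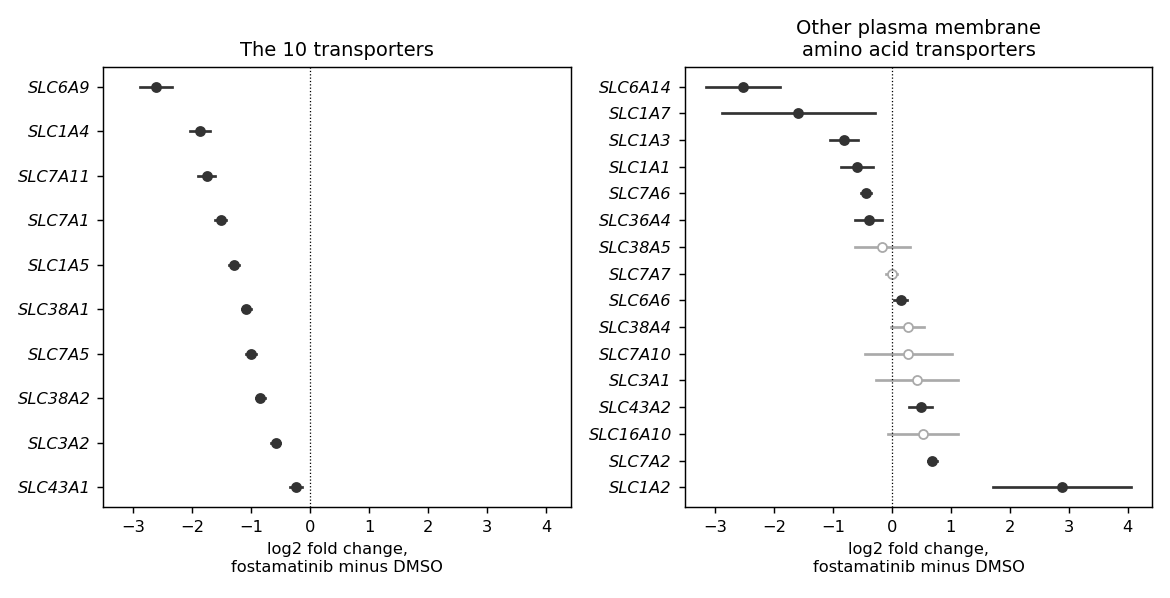
Log2 fold changes (fostamatinib minus DMSO, horizontal axis) with 95% intervals from limma for the 10 transporter genes and for the other plasma membrane amino acid transporters that were listed, with filled points for genes that passed the test and open grey points for the rest. All 10 lie left of 0, from -2.62 for SLC6A9 to -0.24 for SLC43A1, while the others lie on both sides.

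In the order of change from SLC6A9 to SLC43A1, most neighbours were separated by more than their errors. The 95% intervals of the log2 fold change overlapped only for SLC1A4 with SLC7A11, SLC7A11 with SLC7A1, and SLC38A1 with SLC7A5 among neighbours. The adjusted p-values rest on a spread pooled over many genes. In a fit without the mean-variance trend the largest of the 10 was 0.0231 for SLC43A1, and the others were 0.00107 or below. Tested against a change of at least 1.5-fold, 8 of the 10 passed, and SLC3A2 and SLC43A1 did not (adjusted p = 1 for each). SLC7A5 lay at the 2-fold line and went under it, to a log2 fold change of -0.98 at the least, when DMSO replicate 1, DMSO replicate 2 or Fostamatinib replicate 2 was left out, so that 6 genes were then past 2-fold.

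Levels of different genes were compared per kilobase of exon sequence, with the exons of all annotated transcripts of a gene joined. That length was 6392 bases over 41 transcripts for SLC3A2 and 4764 bases over 3 transcripts for SLC7A5. Where the transcripts present are shorter than the joined exons, the level is understated, so the order between genes depends on the annotation. In DMSO samples SLC38A2 was highest at 139.0 ± 5.45 CPM per kb (SD, n = 3), followed by SLC1A5 at 118.1 ± 5.96 and SLC7A5 at 108.5 ± 7.15. The samples of SLC1A5 and SLC7A5 overlapped, as did those of SLC43A1 with SLC7A1 and of SLC7A11 with SLC1A4. SLC3A2 followed at 64.3 ± 2.82 and SLC38A1 at 49.9 ± 2.24 CPM per kb. SLC43A1 (30.4 ± 1.12) and SLC7A1 (30.2 ± 0.87) were near each other in the middle. SLC7A11 (5.96 ± 0.22), SLC1A4 (5.66 ± 0.09) and SLC6A9 (4.16 ± 0.49) were the lowest. After fostamatinib the order changed in the middle, with SLC7A5 (53.7 ± 2.15) above SLC1A5 (48.2 ± 0.67), and SLC43A1 (25.7 ± 1.15) above SLC38A1 (23.5 ± 0.82) and SLC7A1 (10.5 ± 0.51). The bottom held SLC7A11 (1.77 ± 0.17), SLC1A4 (1.56 ± 0.13) and SLC6A9 (0.68 ± 0.13). The less abundant RNAs tended to fall further (Spearman's rho between the level per kb in DMSO and the log2 fold change 0.70, across 10 genes that share the same libraries, given as a description).

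**Figure D3:**
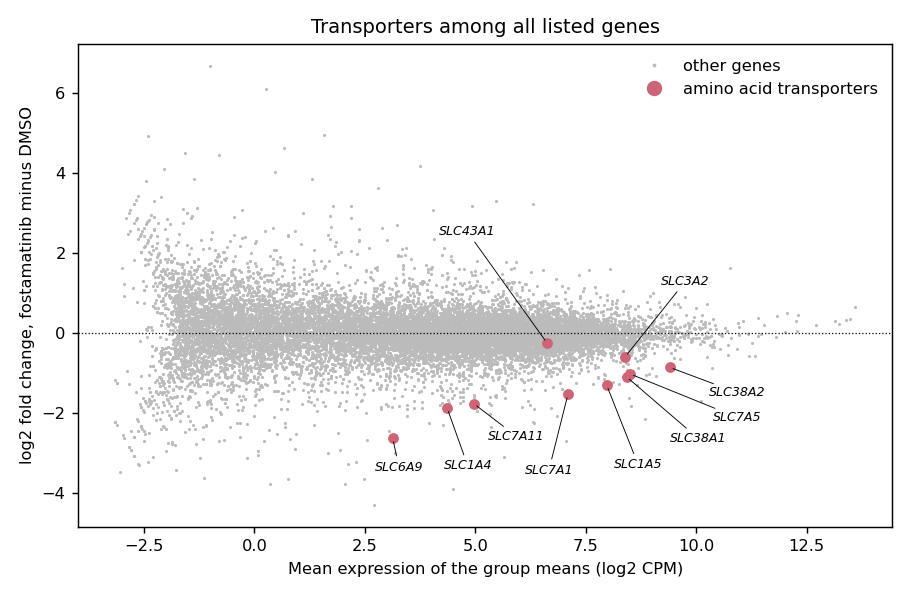
Log2 fold change (fostamatinib minus DMSO, vertical axis) against mean expression (log2 CPM, horizontal axis) for all 16305 listed genes in grey and the 10 transporter genes in red. The 10 lie below 0, from SLC6A9 with the lowest mean expression among them to SLC38A2 with the highest.

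The balance between related transporters was compared within each sample, as the difference in log2 CPM between the members of 6 pairs. All 6 differences shifted without overlap between the groups, and each exact two-sided permutation test gave p = 0.1 (adjusted p = 0.1 over the 6 pairs), the smallest value that 3 against 3 samples can give. SLC7A11 minus its heavy chain SLC3A2 went from -2.84 ± 0.10 in DMSO to -4.01 ± 0.15 in fostamatinib samples, a change of -1.17. SLC7A5 minus SLC3A2 went from 0.33 ± 0.03 to -0.10 ± 0.06, a change of -0.43. These differences are not corrected for length. Per kilobase of joined exons SLC7A5 was above SLC3A2 in both groups (108.5 and 64.3 CPM per kb in DMSO, 53.7 and 42.8 in fostamatinib samples). That order depends on the annotated length and is not read as an order of abundance. Between the light chains, SLC7A11 minus SLC7A5 changed by -0.74. Within the SLC1 family, SLC1A4 minus SLC1A5 changed by -0.57. The shifts of SLC38A2 minus SLC38A1 (0.24) and of SLC43A1 minus SLC7A5 (0.77) were upward, since the second gene of each pair fell further.

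**Figure D4:**
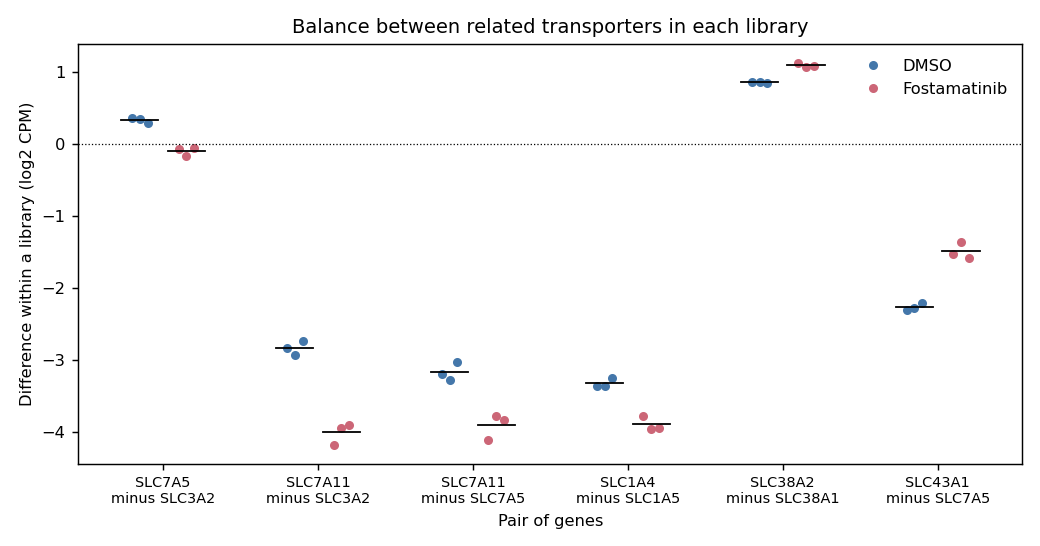
Difference in log2 CPM between the genes of each pair (vertical axis) within each of the 3 DMSO and 3 fostamatinib samples, with points for samples and black lines for group means. Values are not corrected for gene length, so the position of 0 carries no order of abundance. SLC7A5 minus SLC3A2 moves from 0.33 to -0.10, and SLC7A11 minus SLC3A2 moves from -2.84 to -4.01.

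The other amino acid transporters of the plasma membrane did not share the uniform direction. This list, like the 10 genes, was chosen with earlier results of these data known, so the contrast is not independent evidence. Of 33 genes on the list 16 were listed in the files. Of these, 6 passed the test as lower (24.5% of all genes), 4 as higher (23.3% of all genes) and 6 did not pass. The median log2 fold change was 0.07. Among those that did not pass, SLC38A5, SLC7A10, SLC3A1 and SLC16A10 had 40 reads or fewer in every sample, which limits the test. The largest falls were in SLC6A14, a broad-range transporter of neutral and cationic amino acids (-2.52, SE 0.31, adjusted p = 1.79e-08), with 42, 52 and 55 reads in DMSO and 10, 11 and 4 in fostamatinib samples, and in SLC1A7 (-1.58, SE 0.64, adjusted p = 0.0401), with a mean of only 7 reads in DMSO and 2.33 in fostamatinib samples. SLC1A3, a glial-type glutamate transporter, followed (-0.81, SE 0.12, adjusted p = 3.66e-07). The rises were led by SLC1A2, another glutamate transporter that was barely counted, with 3, 1 and 1 reads in DMSO and 7, 21 and 16 in fostamatinib samples (adjusted p = 7.09e-05), by SLC7A2 as above, and by SLC43A2, a relative of SLC43A1 (0.49, SE 0.09, adjusted p = 4.62e-05). SLC1A7 and SLC1A2 met the authors' filter of at least 5 reads only through the group where each was higher. That filter favours such differences, so neither change is read as a result. The counts above include SLC1A7 among the lower and SLC1A2 among the higher genes. Among the light chains that also pair with SLC3A2, named here after their values were seen, SLC7A6 was lower (-0.43, SE 0.04, adjusted p = 1.16e-10). SLC7A7 had a log2 fold change of -0.004 with a 95% interval of -0.10 to 0.09.

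Carriers listed for inner membranes were mixed as well. Of 13 listed genes for lysosomal and other endomembrane carriers, 5 were lower (38.5%), 4 higher (30.8%) and 4 did not pass. The median was -0.02. Over all genes, 24.5% were lower and 23.3% higher. The largest fall was in SLC43A3 (-1.56, SE 0.12, adjusted p = 1.04e-13), a relative of LAT3. SLC43A3 is known as a nucleobase transporter of the plasma membrane and so does not match the name of the list. Next came SLC15A3 (-1.26, SE 0.48, adjusted p = 0.0271) and SLC38A6 (-0.60, SE 0.09, adjusted p = 1.46e-06). SLC15A3 was barely counted, with 8, 16 and 14 reads in DMSO and 2, 6 and 7 in fostamatinib samples. SLC38A11 (1.46, SE 0.34, adjusted p = 0.000511), the sialic acid exporter SLC17A5 (0.29, SE 0.04, adjusted p = 3.27e-07) and SLC38A10 (0.20, SE 0.04, adjusted p = 0.000243) rose. Reads of SLC38A11 were few, with 5, 15 and 15 in DMSO and 27, 23 and 35 in fostamatinib samples. Of 11 listed mitochondrial carriers 3 were lower (27.3%), 2 higher (18.2%) and 6 did not pass, with a median of -0.01. These shares were near those over all genes. The aspartate-glutamate carrier SLC25A12 (-0.61, SE 0.08, adjusted p = 3.95e-08), the ornithine carrier SLC25A15 (-0.53, SE 0.11, adjusted p = 0.000202) and the glutamate carrier SLC25A22 (-0.41, SE 0.09, adjusted p = 0.000348) fell. SLC25A44, which carries branched-chain amino acids (0.49, SE 0.05, adjusted p = 1.13e-09), and SFXN3 (0.26, SE 0.06, adjusted p = 0.000277) rose. None of the mitochondrial carriers passed 2-fold.

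Regulators and markers of the amino acid response moved mostly the same way as the 10 transporters. Of 18 genes on that list 13 were lower (72.2%), 2 higher (11.1%) and 3 did not pass. The median log2 fold change was -0.66. Over all genes, 24.5% were lower and 23.3% higher. The list was written with earlier results of these samples known, so its count is not independent evidence of a direction. CHAC1, which breaks down glutathione, fell furthest (-4.28, SE 0.14, adjusted p = 7.16e-24). ASNS, asparagine synthetase, was next (-3.08, SE 0.06, adjusted p = 1.68e-29), and then TRIB3, a pseudokinase (-1.33, SE 0.05, adjusted p = 1.79e-22). NUPR1 rose from a mean of 18.0 to 38.7 reads (1.19, SE 0.26, adjusted p = 0.000202), and ATF5 rose by 0.28 (SE 0.06, adjusted p = 7.45e-05). Named after their values were seen, ATF4 RNA was lower (-0.69, SE 0.04, adjusted p = 1.61e-17), and the GCN2 gene EIF2AK4 had a log2 fold change of 0.06 with a 95% interval of -0.03 to 0.16. ATF4 is controlled largely at translation, and protein was not measured in these libraries.

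Genes that sense or use the transported amino acids were mixed in direction, except that those of glutamine and glutamate use were mostly lower. The kinase complex mTORC1 is activated by leucine and arginine. Of 29 listed genes of amino acid sensing by mTORC1, 6 were lower (20.7%), 10 higher (34.5%) and 13 did not pass. The median was 0.09, and the shares over all genes were 24.5% lower and 23.3% higher. The leucine sensor SESN2 (-0.64, SE 0.06, adjusted p = 5.91e-11), the leucyl-tRNA synthetase LARS (-0.52, SE 0.04, adjusted p = 1.76e-12) and SEH1L (-0.46, SE 0.06, adjusted p = 2.24e-08) fell furthest. CASTOR2 (1.23, SE 0.13, adjusted p = 8.44e-10), SESN3 (0.80, SE 0.07, adjusted p = 1.44e-12) and WDR59 (0.38, SE 0.06, adjusted p = 4.87e-07) rose furthest.

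For cystine and glutamate, the substrates of SLC7A11, 4 of 11 genes were lower (36.4%), 5 higher (45.5%) and 2 did not pass. The median was 0.05, and over all genes 24.5% were lower and 23.3% higher. The falls were led by the transsulfuration enzymes that make cysteine from methionine, CTH (-1.69, SE 0.10, adjusted p = 5.43e-16) and CBS (-0.99, SE 0.06, adjusted p = 1.64e-16), and by GCLM (-0.42, SE 0.06, adjusted p = 1.35e-06), the modifier subunit of the enzyme that starts glutathione synthesis. Its catalytic subunit GCLC rose (0.34, SE 0.04, adjusted p = 6.04e-08), as did the lipid peroxide reductase GPX4 (0.47, SE 0.04, adjusted p = 7.44e-13) and the quinone reductase NQO1 (0.49, SE 0.04, adjusted p = 5.55e-14).

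Of 10 listed genes of glutamine and glutamate use, 7 were lower (70%), 1 higher (10%) and 2 did not pass. The median was -0.38, and over all genes 24.5% were lower and 23.3% higher. After ASNS, which uses glutamine as its nitrogen donor, the largest falls were in the alanine transaminase GPT2 (-0.74, SE 0.07, adjusted p = 9.87e-12) and in PPAT, the first enzyme of purine synthesis (-0.73, SE 0.09, adjusted p = 1.49e-08). GLUL, glutamine synthetase, which makes glutamine inside the cell, was the exception and rose (0.90, SE 0.04, adjusted p = 2.86e-19).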

How the data were processed

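RNA-seq of 3 DMSO and 3 Fostamatinib samples was used. The authors mapped poly(A)-selected, directional libraries to hg19 with HISAT, counted reads with featureCounts on GENCODE v.22, kept a gene only where 2 of the 3 samples of either group reached 5 reads, and applied TMM scaling. The deposited values are log2 CPM, made by the authors with an offset of 0.5 reads. Whole reads could be recovered from all values within 0.05 of a whole number, and totals were 13303451 to 15272737 per sample on the genes kept.

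A linear model of the deposited log2 CPM of 16305 genes was fitted in limma 3.58.1 under R 4.3.3 (lmFit, then trended eBayes), with treatment as the only term. Calls were made at a Benjamini-Hochberg adjusted p under 0.05 over all genes. The script was tested on simulated data. Pairs of genes were compared with exact permutation tests in Python 3.11.15 with scipy 1.17.1. Lengths and positions are from GENCODE 44 mapped to GRCh37, the same build as hg19, and promoter windows are from RefSeq (GRCh38.p14). The 10 genes and the other lists were chosen with earlier results of these data known. From each other list the 3 largest falls and 3 largest rises among called genes are named, and for other genes with an SLC symbol 50 or more reads on average in the higher group and no overlap between groups were also required. No fit without a filter was possible, since the values are already filtered. Alternatives were limma-voom on the recovered reads, no trend, library size alone, RLE size factors, a minimum of 10 reads per sample, a block for the replicate number, a test against 1.5-fold, and the omission of each sample in turn.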

Additional observations from a re-analysis of the deposited data

How the results depend on the processing

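The 10 transporters were called lower under 12 of the 13 alternatives, and 8 under the test against 1.5-fold, where SLC3A2 and SLC43A1 were lost. None was called higher under any of them. Past 2-fold were 6 or 7. Over all genes the number called was 7794, with a range of 6382 to 7977. For the other plasma membrane amino acid transporters 7 to 10 were called. Leaving out each sample, other scalings and other fits moved the log2 fold change of SLC6A9 between -2.76 and -2.48 and that of SLC43A1 between -0.27 and -0.21. With a replicate block, 10 transporters were lower and 7977 genes were called in all. Deviations of same-numbered samples correlated at 0.0365, -0.0213 and 0.0371, and 2 of 6 samples correlated best with their own number. The labels do not say how the replicates were made, so whether same-numbered samples belong together cannot be told. The main fit used no block. No scaling moved the median of all genes by over 0.1. Depth limits SLC6A9 most, with 38 reads in its lowest sample, and 3 samples per group limit every value.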

Other observations

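Among the 225 other listed genes whose symbol starts with SLC, 70 were lower and 68 higher after fostamatinib (31.1% and 30.2%, beside 24.5% and 23.3% of all genes), with a median log2 fold change of 0.02. Past 2-fold were 13 of the lower and 18 of the higher genes. Genes are named here only if they had 50 or more reads on average in the higher group and no overlap between groups. SLC6A14, given above, fell further than the genes named here but missed the read limit. SLC1A7 missed it as well, and its change is not read as a result, as said above. Within that limit the largest falls were in SLC43A3 (given in the report), SLC10A4 (-1.28, SE 0.23, adjusted p = 1.53e-05), a relative of the bile acid transporters, and SLC39A8 (-1.09, SE 0.08, adjusted p = 2.16e-14), a zinc and manganese importer. SLC39A5, another zinc importer, rose from a mean of 24.7 to 103.7 reads (2.19, SE 0.20, adjusted p = 2.24e-11). SLC25A42, which brings coenzyme A into mitochondria (1.56, SE 0.07, adjusted p = 2.70e-20), and SLC47A1, an exporter of organic cations (1.32, SE 0.14, adjusted p = 4.28e-10), also rose.

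Of the markers of hepatocytes and Huh7 cells, APOA1 rose furthest (3.19, SE 0.16, adjusted p = 1.79e-18), from a mean of 21.7 to 189.3 reads, followed by HNF4A (1.02, SE 0.04, adjusted p = 8.40e-22) and TF (0.65, SE 0.03, adjusted p = 9.48e-18). Of the 6 listed markers of other cell types, PDGFRB (0.95, SE 0.20, adjusted p = 0.000141), PECAM1 (0.51, SE 0.12, adjusted p = 0.000837) and COL1A2 (0.37, SE 0.04, adjusted p = 3.15e-09) were higher. SNHG1, a neighbour of SLC3A2 on chromosome 11, fell by 0.63 on the log2 scale (SE 0.05, adjusted p = 4.91e-12).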
